A study of Mus musculus with 4 samples.

Results

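The replication-dependent histone genes were taken as every gene whose symbol in the deposited feature lists started with Hist1h, Hist2h, Hist3h or Hist4h, which gave 67 of 31053 genes. They comprised 6 genes for the linker histone H1 and 18 for H2A, 18 for H2B, 12 for H3 and 13 for H4, the core histones. The Hist1 cluster on mouse chromosome 13 held 54 of them, the Hist2 cluster on chromosome 3 held 10, the Hist3 cluster on chromosome 11 held 2, and Hist4h4 lay alone on chromosome 6. Their expression was followed in cycling and other immune cells and between skin tumors and control skins. The symbols were matched without use of any measured value.

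Live immune cells (CD45+, DAPI-) were sorted from 2 control skins, which were normal skin of uninoculated C57/BL6 mice, and from 2 skin tumors that grew in C57/BL6 mice after flank injection of the 2323 cell line. The 2323 cells came from a skin tumor of a genetically engineered mouse model with the K14rtTA/tetOCre drivers, so every tumor derived from 1 line. The mice were young adults of both sexes, the hosts themselves carried no engineered allele, and the tumors had grown for about 2 weeks. Each sample gave 1 droplet library of the 3′ ends of RNA (10x Genomics). A level is given here as the UMIs (unique molecular identifiers, 1 per captured molecule) of a gene or group of genes per 10000 UMIs of the same cells.

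Core histones H2A, H2B, H3 and H4 form the octamer around which DNA is wrapped, and H1 binds the DNA where it enters and leaves the nucleosome. Most of these genes are transcribed in S phase, when newly copied DNA is packaged, and their mRNAs are the metazoan mRNAs that end in a conserved stem-loop, bound by SLBP, in place of a poly(A) tail. A part of them can also be transcribed past the stem-loop to a poly(A) site, which is known in cells that have stopped dividing, and libraries primed on poly(A) capture such ends.

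The stem-loop is shown because it is the end that separates this family from other mRNAs. A 16-base hairpin of the histone type, searched in the GENCODE transcripts of GRCm38, was present in 44 of the 67 genes against 79 of 55450 annotated genes in all (0.142%). It took 6 forms, and the 3 most frequent are printed with the paired stem in capitals.
Form in 26 genes, among them Hist1h1c, Hist1h2ab and Hist3h2a: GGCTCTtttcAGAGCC
Form in 7 genes, all of them H4 genes such as Hist1h4d: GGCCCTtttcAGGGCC
Form in 6 genes, among them Hist1h3c and Hist1h2bb: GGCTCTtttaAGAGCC
The annotation ran on past this hairpin for very unequal lengths. It ended 3 bases after it in Hist1h2ap and 11 in Hist1h2ab, 74 in Hist1h3c, 770 in Hist1h4d, 840 in Hist1h1c and 1643 in Hist3h2a. In the remaining 23 genes the annotated transcript held no such hairpin, Hist1h1b and Hist1h2bc among them. Some of these transcripts were annotated as short, such as 312 bases in Hist1h4k and 381 in Hist1h2bl. A hairpin past the annotated end could not be found, so these genes need not lack it.

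The promoters of 4 members that the results below turn on are printed from RefSeq (GRCm38.p6), as the 160 bases up to the base before the annotated start, 5′ to 3′ on the strand of the gene. Hist1h1b (listed there as H1f5) rose most among the H1 genes in cycling cells, Hist1h2ab (H2ac4) and Hist1h4d (H4c4) rose among the H2A and H4 genes, and Hist3h2a (H2aw) was lower in cycling cells. Capitals mark the CCAAT box (CCAAT), the TATA box with the letters TATAAA, the octamer that reads ATTTGCAT and, present before most H1 genes, the H1 box AAACACA. Each was searched on either strand.
Hist1h1b, chr13:21780626-21780785, minus strand: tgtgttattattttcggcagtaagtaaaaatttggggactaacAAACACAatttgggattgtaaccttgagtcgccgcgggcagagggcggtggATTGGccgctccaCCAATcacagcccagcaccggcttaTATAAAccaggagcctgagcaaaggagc
Hist1h2ab, chr13:23750928-23751087, plus strand: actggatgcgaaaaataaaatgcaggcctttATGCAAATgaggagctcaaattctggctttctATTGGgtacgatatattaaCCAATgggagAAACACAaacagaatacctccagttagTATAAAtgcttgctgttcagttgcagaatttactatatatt
Hist1h4d, chr13:23581408-23581567, plus strand: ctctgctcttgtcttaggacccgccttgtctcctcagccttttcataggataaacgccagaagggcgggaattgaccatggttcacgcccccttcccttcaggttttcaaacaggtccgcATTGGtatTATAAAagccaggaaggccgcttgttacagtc
Hist3h2a, chr11:58954525-58954684, plus strand: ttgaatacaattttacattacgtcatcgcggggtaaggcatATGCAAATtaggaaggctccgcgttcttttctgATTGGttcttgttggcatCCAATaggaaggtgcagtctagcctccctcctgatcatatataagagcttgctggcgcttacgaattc

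RefSeq gave a promoter for 62 of the 67 genes, in 63 entries. Within the 300 bases around the start that were searched, CCAAT was present in 54 of the 63 entries (85.7%) against 37.4% of 32851 mouse promoters, and the 9 entries without it were all H4 genes. TATAAA was present in 35 of 63 (55.6%) against 13.6% of all promoters. The octamer was found in 7 of 18 H2A and 7 of 17 H2B entries and in none of the H1, H3 or H4 entries, with 1.74% of all promoters holding it. The H1 box was found in 5 of 6 H1 promoters, against 7.18% of all promoters. These matches are descriptions of the letters and were not tested as binding sites.

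The deposited libraries held 3499 and 3862 cells from the control skins and 5176 and 2258 from the skin tumors, with 34893543 to 73904272 UMIs. After the cell filters, doublet removal and the removal of cells with collagen or keratin transcripts, 2863, 2956, 4528 and 1878 immune cells remained, with a median of 10205 to 12512 UMIs. Ptprc, which encodes CD45, was detected in 95.4% to 96.5% of these cells. Libraries shared 1 to 7 cell barcodes in any pair. The libraries differed in cell types. Dendritic epidermal T cells numbered 630 and 669 in the control skins and 2 and 20 in the tumors, macrophages numbered 63 and 202 against 1754 and 613, and cells with markers of 2 lineages numbered 254, 301, 8 and 171. With 2 libraries per group, every p-value below measures only the spread between those libraries. A level summed over cells cannot tell fewer expressing cells from less RNA per cell.

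The 67 genes gave 185690 UMIs in the immune cells of the 4 libraries together. The 10 genes with most UMIs held 69.8% of them, and 26 genes had more than 1000. Hist1h1c came first with 18159 UMIs (9.78%), followed by Hist1h1e with 17262, Hist1h2bc with 16165, Hist1h1b with 15920, Hist1h4d with 15619 and Hist1h2ae with 14899. Hist1h2ap, Hist3h2a, Hist1h3c and Hist1h2ab completed the 10. The order differed between libraries. Hist1h1e came first in control skin 1 (5642 UMIs), Hist1h1c in control skin 2 (4756), Hist1h2ap in skin tumor 1 (10655) and Hist1h2bc in skin tumor 2 (2518). Hist1h2aa and Hist1h2ba, known as testis genes, had 0 UMIs, and Hist1h1t, the testis H1, had 14. Hist2h2aa2 had 7 UMIs and Hist1h2bq had 3. Reads from 3′ ends cannot always tell these copies apart. In 34 genes fewer than 50% of the 50-base words in the last 300 bases were unique among annotated transcripts, in 9 genes none were, and in 18 genes all were, so values of single genes with shared words are uncertain as to the copy. Such genes were found in every class, with none of the words unique in Hist1h3e, Hist1h3f and Hist1h1e. All words were unique in Hist1h4d, Hist1h4i, Hist1h2ac and Hist1h2be, and 96.8% were in Hist1h2bc.

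**Figure D1:**
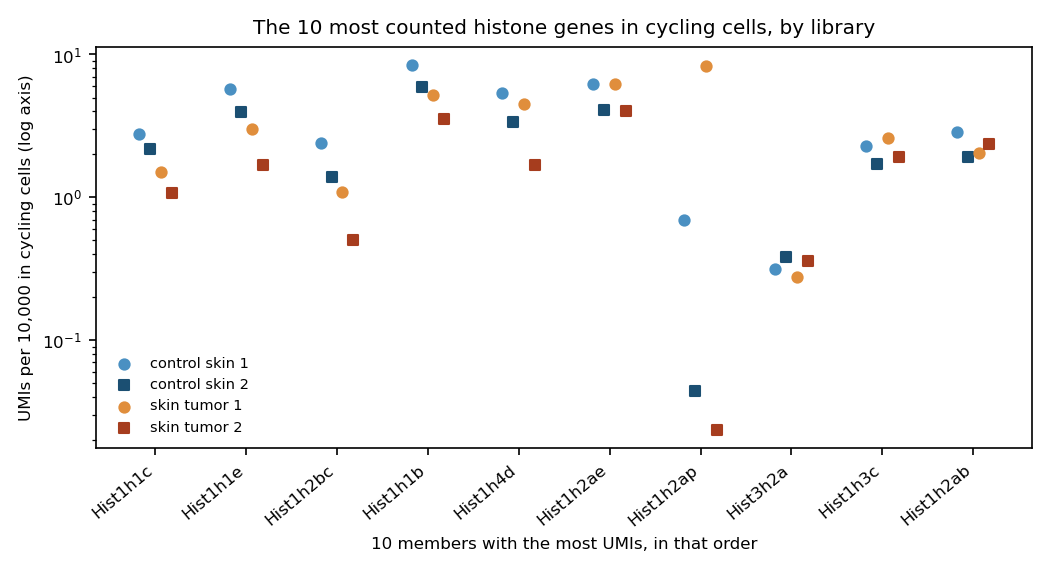
UMIs per 10000 (log axis) in cycling cells for the 10 histone genes with most UMIs, 1 point per library. Hist1h2ap runs from 0.024 in skin tumor 2 to 8.35 in skin tumor 1, while Hist1h2bc, the next most spread, runs from 0.506 to 2.40.

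Cycling cells were those with at least 5 UMIs of Top2a and Mki67 together, 2 genes of dividing cells that are not among the 67. They numbered 158 and 178 in the control skins and 441 and 126 in the tumors. Of these, 25, 31, 3 and 30 in the same order carried markers of 2 lineages and were kept. Their part in the levels below was not tested. The summed histone level in cycling cells was 52.8 and 35.6 per 10000 UMIs in control skins 1 and 2, and 50.1 and 25.3 in skin tumors 1 and 2. In the other cells it was 6.62, 5.13, 5.82 and 4.09 in the same order, so that every library was 6.19 to 8.60 times higher in cycling cells and the values did not overlap. Cycling cells held 10.2% to 17.7% of all UMIs and 47.5% to 64.8% of the histone UMIs. Their median depth was also higher, 21736 to 27972 UMIs per cell against 9880 to 11658.

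The level was also graded within the gate. In cells with no Top2a or Mki67 UMI the sum was 4.06 to 6.43 per 10000, and in cells with 5 to 9 it was 8.62 to 12.2. It was 16.5 to 46.8 in cells with 10 to 19, 32.8 to 70.7 in cells with 20 to 39 and 49.0 to 85.4 in cells with at least 40. The lowest values at 10 to 19 and 20 to 39 were those of skin tumor 2, while at 40 or more control skin 2 was lowest. Deeper cells reach a bin more easily, and the part of depth in this order was not tested.

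**Figure D2:**
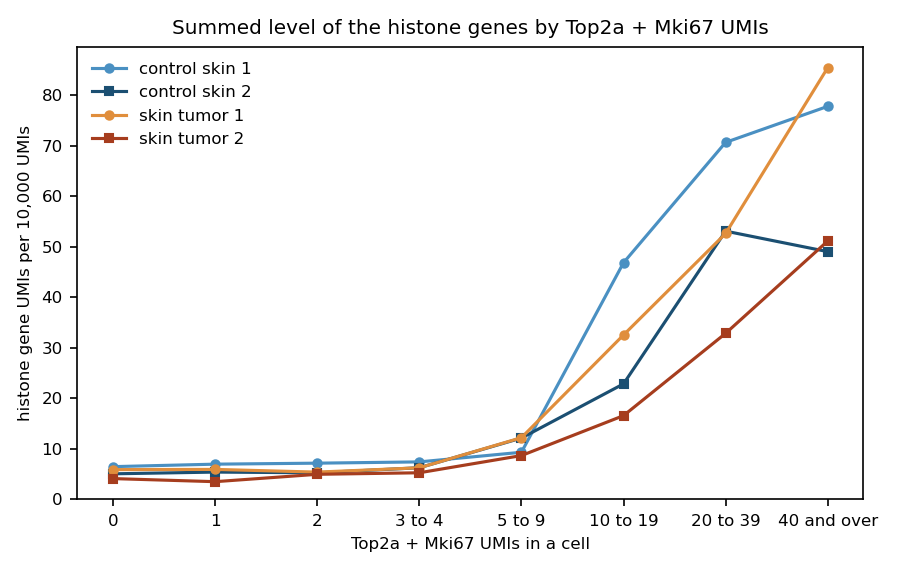
Summed histone level (UMIs per 10000 UMIs) in cells grouped by their UMIs of Top2a and Mki67, 1 line per library. All 4 lines lie at 4.06 to 6.43 in cells with 0 such UMIs and at 49.0 to 85.4 in cells with 40 or more.

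Cycling and other cells of each library were compared gene by gene with edgeR's quasi-likelihood test, with the library as a block and Benjamini-Hochberg adjustment over all 14065 genes tested. Of the 67 histone genes 62 passed the filter on low counts, 53 rose in cycling cells (12.4% of all genes tested did), 1 fell (16.0% did) and 8 did not pass. The median log2 fold change was 2.81 over the 62 genes and -0.05 over all genes tested. All 5 tested H1 genes rose, with a median of 2.80, as did 15 of 16 H2A genes (median 4.29), 14 of 16 H2B genes (2.79), 10 of 12 H3 genes (3.22) and 9 of 13 H4 genes (1.89). By cluster, 47 of 50 tested Hist1 genes rose, with a median of 3.20, and 5 of 9 Hist2 genes.

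Hist1h1b encodes the H1 protein usually named H1.5. In cycling cells it reached 8.41 and 5.90 per 10000 in the control skins and 5.24 and 3.52 in the tumors, and in other cells 0.264, 0.146, 0.166 and 0.122. Every cycling value lay above every other value, and the log2 fold change was 4.90 ± 0.12 (SE, adjusted p = 8.04e-08). It sits at chr13:21779883-21780625 (minus strand, GRCm38), and all 50-base words at its 3′ end were unique. Hist1h1a, another H1 gene, rose by 4.06 ± 0.24 on the log2 scale, Hist1h1d by 2.80 ± 0.11 and Hist1h1e by 2.42 ± 0.09. Hist1h1c rose least of the H1 genes, by 0.79 ± 0.13 (adjusted p = 0.00316), from 1.21, 1.04, 0.784 and 0.779 in other cells to 2.79, 2.19, 1.51 and 1.07 in cycling cells.

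The H2A genes held 6 of the 10 largest changes. Hist1h2ae measured 6.19, 4.07, 6.23 and 4.04 per 10000 in cycling cells of control skins 1 and 2 and skin tumors 1 and 2, against 0.143, 0.115, 0.147 and 0.114 in other cells (log2 fold change 5.15 ± 0.10, adjusted p = 7.03e-08). Hist1h2ab went from 0.0384, 0.0291, 0.0384 and 0.0395 to 2.89, 1.93, 2.06 and 2.35, a log2 fold change of 5.84 ± 0.13. For both genes the 4 cycling values were similar between control skins and tumors. Hist1h2af showed the highest fitted value of the family, 7.61 ± 0.19, with 210, 184, 400 and 97 UMIs in cycling cells and 11, 5, 6 and 4 in the far more numerous other cells. Hist1h2ah had 81 UMIs in cycling cells and 2 in the others, a ratio of levels of 252 with a counting interval of 67.5 to 2116. Hist1h2ap (5.15 ± 0.13) and Hist1h2an (5.01 ± 0.12) were the other 2.

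Among the H3 genes, Hist1h3c rose by 6.11 ± 0.18 and Hist1h3b by 6.97 ± 0.33 on the log2 scale. Hist1h3c measured 2.30, 1.71, 2.61 and 1.91 in cycling cells and 0.0222, 0.0191, 0.0433 and 0.0297 in other cells. Hist1h2bm was the H2B gene with the largest rise, 5.05 ± 0.33. Hist1h4d, the H4 gene with most UMIs, measured 5.39, 3.39, 4.50 and 1.68 in cycling cells and 0.619, 0.392, 0.422 and 0.185 in other cells (3.07 ± 0.08, adjusted p = 1.26e-07). Skin tumor 2 had the lowest Hist1h4d level in both kinds of cells, yet its ratio lay in the same range.

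**Figure D3:**
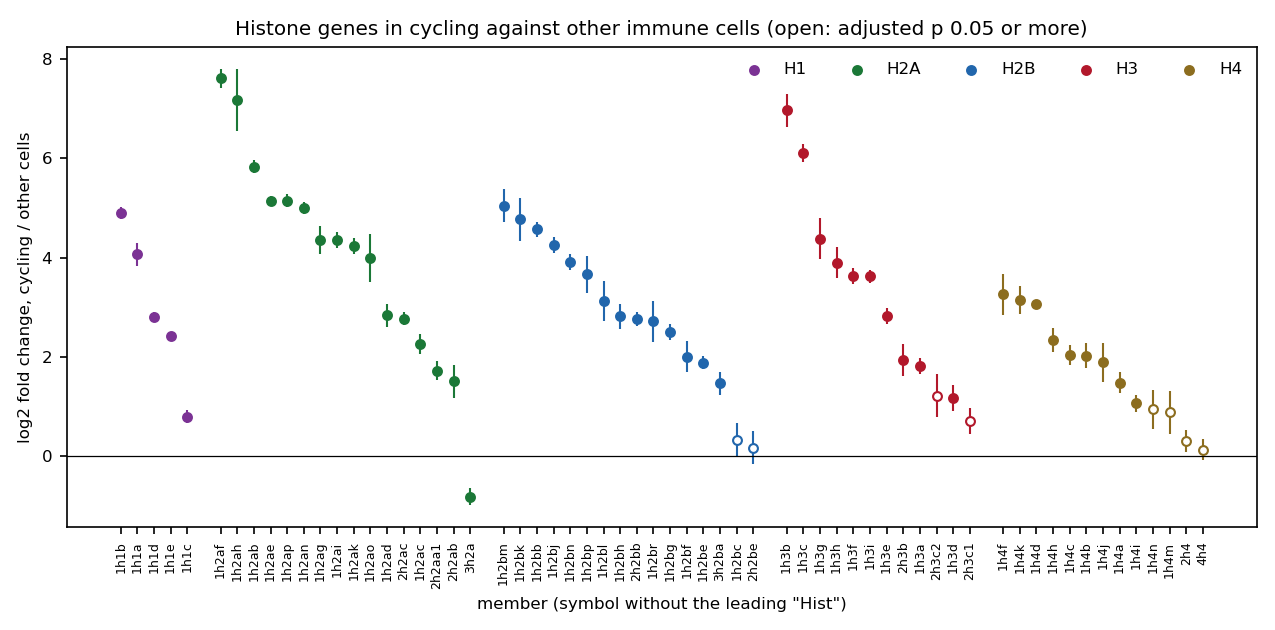
Log2 fold change of each tested histone gene in cycling against other cells (vertical axis), grouped and colored by histone, with the SE as bars. Filled points passed the edgeR test at an adjusted p of 0.05 and open points did not. Only Hist3h2a passed below 0.

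Hist3h2a, an H2A gene of the Hist3 cluster (chr11:58954685-58956830, plus strand), went the other way. It measured 0.315, 0.380, 0.277 and 0.361 per 10000 in cycling cells and 0.538, 0.536, 0.657 and 0.393 in the others, lower in cycling cells of all 4 libraries. The log2 fold change was -0.81 ± 0.17 (adjusted p = 0.00924). Hist1h2bc, the H2B gene with most UMIs, measured 2.40, 1.39, 1.08 and 0.506 in cycling and 0.836, 0.722, 1.03 and 0.909 in other cells, higher in the control skins, about level in skin tumor 1 and lower in skin tumor 2 (0.32 ± 0.34, adjusted p = 0.514). The remaining 7 genes that did not pass were Hist2h2be, Hist2h3c1, Hist2h3c2, Hist2h4, Hist4h4, Hist1h4m and Hist1h4n, with log2 values of 0.13 to 1.22. Thus 4 of these 7 lie in the Hist2 cluster.

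The annotated 3′ end ran alongside the size of the change. Genes annotated to end at most 50 bases after the stem-loop rose in 16 of 18 tested cases (median log2 fold change 3.46), and genes with no hairpin in the annotated transcript in 18 of 20 (median 3.76). Genes annotated more than 50 bases past the hairpin rose in 19 of 24 and fell in 1, with a median of 2.15. Hist3h2a, Hist2h4 and Hist4h4 belong to the last group, as do Hist1h3b and Hist1h2ae, which rose strongly. The difference between these groups of genes was not tested.

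Leaving out 1 library at a time gave 52 to 53 genes higher and 1 lower. Without the cells that carried markers of 2 lineages, 55 rose and 1 fell. A gate on the share of Top2a and Mki67 UMIs, at least 3 per 10000, in place of their number gave 53 and 1.

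The same comparison was made within a lineage, because cycling and other cells can differ in cell type. In MHC II cells, which comprise macrophages, dendritic cells and Langerhans cells, 46 of 56 tested histone genes rose in cycling cells (8.52% of all genes tested) and 1 fell (11.8%), with a median log2 fold change of 2.54. T cells here comprise dendritic epidermal and dermal gamma delta T cells beside CD4 T cells, CD8 T cells, Tregs and other T cells. Among them 47 of 51 genes rose (12.9%) and 1 fell (15.2%), with a median of 3.37. Cycling and other cells can still differ in cell type within either lineage, and the part of this was not tested. The gene that fell was Hist3h2a in both lineages, by 0.84 ± 0.18 in MHC II cells (edgeR adjusted p = 0.0095) and 1.05 ± 0.26 in T cells (adjusted p = 0.0186) on the log2 scale. Hist1h2bc and Hist1h1c passed the test in T cells, with 1.01 ± 0.27 and 1.16 ± 0.12, and not in MHC II cells, with 0.38 ± 0.32 and 0.55 ± 0.20. The difference between the lineages for these changes was not tested. Without skin tumor 1, the library with most cycling cells, 37 genes rose in each lineage.

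**Figure D4:**
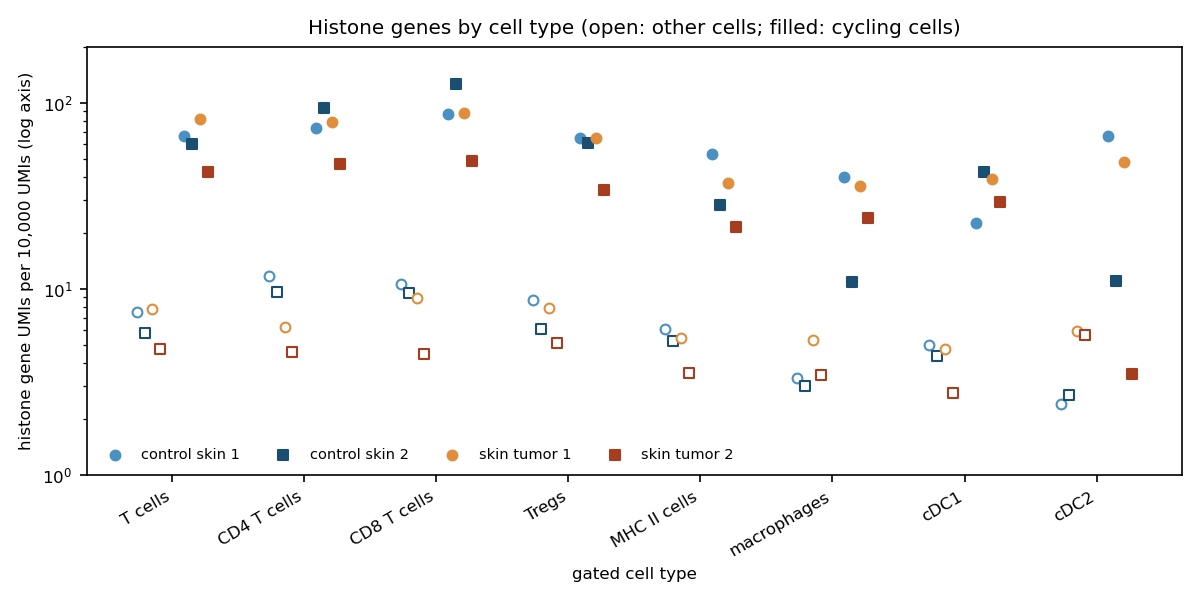
Summed histone level (UMIs per 10000, log axis) by gated cell type and library, open points for other cells and filled points for cycling cells. Cycling T cells lie at 42.5 to 81.7 and cycling MHC II cells at 21.5 to 52.9. In skin tumor 2 the cycling cDC2 (3 cells) lie at 3.47, below the other cDC2 at 5.65.

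Cycling T cells carried more histone RNA per UMI than cycling MHC II cells of the same library. The sum was 66.8, 60.2, 81.7 and 42.5 in T cells of control skins 1 and 2 and skin tumors 1 and 2, and 52.9, 28.2, 37.0 and 21.5 in MHC II cells. The T cell value was higher in all 4 libraries, by 1.26 to 2.21 times. The cells differed in depth, with a median of 15765 to 20298 UMIs in cycling T cells and 29483 to 32410 in cycling MHC II cells, and its part was not tested. In a comparison added after these values were seen (edgeR, library as a block, 9109 genes), 19 of 44 tested histone genes were higher in T cells (13.1% of all genes) and 0 lower (17.1%), while 25 and 2 had an unadjusted p under 0.05 and DESeq2 called 21 and 0. For the unadjusted and DESeq2 counts no share of all genes is given. The median was 0.84 over the histone genes and -0.0016 over all genes.

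The 19 genes came from all 5 histone classes, and Hist1h4h differed most. It measured 0.719, 0.482, 1.82 and 0.335 in cycling T cells and 0.212, 0.114, 0.390 and 0.131 in cycling MHC II cells (log2 fold change 1.70 ± 0.23, adjusted p = 0.0028). Hist1h1b measured 11.9, 10.7, 9.35 and 7.62 against 6.96, 4.47, 3.56 and 2.54, higher in T cells of each library (1.05 ± 0.18, adjusted p = 0.0067). Hist1h4k (1.60), Hist1h2bp (1.38), Hist1h2bm (1.31), Hist1h1e (1.27), Hist1h2ai (1.25), Hist2h2bb (1.22), Hist1h2bb (1.22), Hist1h3a (1.20) and Hist1h2ak (1.20) completed the 10 largest. Of the genes of S phase 11 of 29 tested were higher and 1 lower in T cells, and of those of G2/M 7 of 30 were higher. Without 1 library, 11 to 17 histone genes were higher, 11 without control skin 2 and 12 without either tumor.

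Genes that work with histones were read from lists drawn up for this family. Cycling cells had 29 of 30 G2/M genes higher (median log2 fold change 4.53) and 29 of 30 S phase genes (median 2.28). Rrm2, a subunit of the enzyme that makes deoxynucleotides, rose by 4.53 ± 0.21. Histone chaperones were higher in 15 of 21 cases, led by Asf1b, which hands H3 and H4 to the replication fork (4.0 ± 0.11). Of the factors that transcribe, process or degrade histone mRNA 12 of 21 rose. Among them were Zfp473, a component of the 3′ processing complex (2.56 ± 0.35), Casp8ap2 (0.80 ± 0.08) and Slbp, the stem-loop binding protein (0.60 ± 0.15, adjusted p = 0.0201). The medians of both lists, 0.63 and 0.46, were below that of the histone genes, and some genes are on 2 lists, such as Slbp on the S phase and processing lists.

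Genes listed as replication-independent variants, most of which are made outside S phase as well and from polyadenylated mRNA, rose in 4 of 10 tested cases. Their median was 0.39, and the list was not checked for the stem-loop. H2afx, the variant phosphorylated at DNA breaks, measured 0.772, 0.604, 1.10 and 0.706 in cycling and 0.111, 0.103, 0.120 and 0.141 in other cells (2.59 ± 0.14, adjusted p = 4.48e-06). H2afv rose by 1.69 ± 0.10, H2afz by 0.93 ± 0.07 and H2afy by 0.32 ± 0.08. The H3.3 genes H3f3a and H3f3b did not pass, with values of 0.06 ± 0.09 and -0.05 ± 0.12.

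Within cycling cells, those ranked toward S phase by the S and G2/M lists were set against those ranked toward G2/M, splitting each library at its median. None of 48 tested histone genes was higher (0.301% of 10293 genes were) or lower (0.408%) by edgeR's quasi-likelihood test. With an unadjusted p under 0.05 there were 1 higher and 4 lower, and DESeq2 called 0 and 1. The summed level was 55.5 and 36.5 in the S-ranked cells of the control skins and 41.7 and 19.9 in those of the tumors, against 49.8, 34.8, 57.8 and 30.7 in the G2/M-ranked cells. Both control skins were thus slightly higher in S-ranked cells and both tumors lower. The median log2 ratio of S to G2/M list UMIs was -0.41 and -0.36 in the control skins and 0 and 0.37 in the tumors. The split thus lay at different points in the 2 groups. Within 0.5 of the median lay 50 of 158 and 44 of 178 cycling cells of the control skins, and 98 of 441 and 33 of 126 of the tumors. S-ranked cells still held G2/M list UMIs, at medians of 13.1, 11.6, 12.9 and 6.43 per 10000 in control skins 1 and 2 and skin tumors 1 and 2. In G2/M-ranked cells these were 24.1, 23.5, 33.3 and 19.5. The split was thus partial, and a lack of calls does not show equal histone levels in S phase and G2/M.

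Over all immune cells the summed histone level was 11.3 and 8.71 per 10000 in the control skins and 13.6 and 6.83 in the skin tumors, so that the tumors held both the highest and the lowest value. Cycling cells made up 5.52% and 6.02% of the immune cells of control skins 1 and 2 and 9.74% and 6.71% of those of the tumors, a mean of 5.77 ± 0.356% against 8.22 ± 2.14% (SD, n = 2). The exact permutation test gave p = 0.33, the smallest that 2 against 2 libraries allow. Of 62 tested histone genes 1 was higher in tumors (11.7% of 16017 genes were) and 1 lower (15.7%), with a median log2 fold change of 0.23 over the histone genes and 0.05 over all genes. The higher gene was Hist2h3c2, an H3 gene of the Hist2 cluster, with 11 and 20 UMIs in the control skins and 111 and 45 in the tumors (1.88 ± 0.44, edgeR adjusted p = 0.0362). The lower gene was Hist1h1c, at 1.37 and 1.18 per 10000 against 0.912 and 0.817 (-0.69 ± 0.13, adjusted p = 0.0225). Without skin tumor 2, 13 genes were higher and 1 lower, without skin tumor 1, 0 and 7, and without either control skin, 0 and 0. In each fit of tumor against control without 1 library, 1 group holds a single library, which is assumed to vary like the 2 of the other group.

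In the cycling cells, 3 of 61 tested histone genes were lower in tumors (9.91% of 11824 genes were) and 0 higher (7.59%). Both shares were below those of all genes. At an unadjusted p under 0.05 there were 8 lower and 2 higher, and DESeq2 called 7 lower and 0 higher. No share of all genes is given for these counts, so they cannot be read against a background. Hist1h1c measured 2.79 and 2.19 in cycling cells of the control skins and 1.51 and 1.07 in those of the tumors (-1.04 ± 0.22, adjusted p = 0.0333). Hist1h2an measured 2.36 and 1.44 against 1.06 and 0.938 (-1.02 ± 0.25, adjusted p = 0.0487), and only 19.5% of its 3′ words were unique. Hist1h3b measured 0.743 and 0.573 against 0.407 and 0.408 (-0.79 ± 0.18, adjusted p = 0.0419). For these genes both tumors lay below both control skins. The median over the family was -0.08 and over all genes 0.05. The 3 calls were lost without either control skin, and 0 were lower and 1 higher without the cell filters. Without skin tumor 1, 6 were lower, and without skin tumor 2, 2 were lower and 8 higher. Leaving out cells with markers of 2 lineages gave 6 lower of 56 tested.

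By class, the H1 sum in cycling cells was 18.8 and 13.6 in the control skins and 11.0 and 7.09 in the tumors, a mean of 16.2 ± 3.70 against 9.03 ± 2.74 (SD, n = 2). The groups did not overlap, but with 2 against 2 libraries an exact permutation p cannot go under 0.33. How many other genes or gene groups separate in this way was not counted. The cycling cells also differed in lineage. Cycling MHC II cells numbered 40 and 58 in the control skins and 250 and 50 in the tumors. Cycling T cells numbered 65 and 66 against 152 and 29. The part of this mix in the H1 sum and in the calls between groups was not tested. In the same cells the H2A sum was 15.5 and 10.1 against 21.1 and 9.36, the H2B sum 5.65 and 3.32 against 4.56 and 2.04, the H3 sum 5.69 and 4.14 against 5.93 and 4.15, and the H4 sum 7.09 and 4.48 against 7.50 and 2.64. All 4 core classes overlapped between the groups. Beside Hist1h1c, the H1 genes Hist1h1b (-0.81 ± 0.26, adjusted p = 0.0937), Hist1h1d (-1.08 ± 0.28, adjusted p = 0.0524) and Hist1h1e (-1.14 ± 0.32, adjusted p = 0.0651) did not pass, and Hist1h1a had a value of -0.11.

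Outside the cycling gate, 5 of 58 tested histone genes were lower in tumors (16.6% of 15706 genes were) and 1 higher (12.5%). Histone genes were thus called less often than all genes in both directions. Of the 5 lower genes 3 were H1 genes. Hist1h1e measured 1.04 and 0.712 in the control skins and 0.429 and 0.311 in the tumors (-1.36 ± 0.25, edgeR adjusted p = 0.0204). Hist1h1d measured 0.212 and 0.160 against 0.0976 and 0.0727 (-1.24 ± 0.23, adjusted p = 0.0209), and Hist1h1c 1.21 and 1.04 against 0.784 and 0.779 (-0.65 ± 0.12, adjusted p = 0.0233). In each of these 3 genes both tumors were below both control skins. The 3′ end of Hist1h1e lies within the annotated Hist1h2be transcript on the same strand, so UMIs of these genes cannot be fully told apart.

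In these cells the H1 sum reached 2.74 and 2.07 in the control skins against 1.51 and 1.30 in the tumors, a mean of 2.41 ± 0.474 against 1.40 ± 0.147 (SD, n = 2). The H2A sum was 1.07 and 0.963 against 1.40 and 0.738, and the H2B sum 1.21 and 0.996 against 1.47 and 1.17, so both overlapped between groups. The H3 sum, 0.407 and 0.320 against 0.377 and 0.264, and the H4 sum, 1.19 and 0.775 against 1.07 and 0.619, overlapped as well. The limit on the exact permutation p given for the H1 sum of cycling cells holds here too. How many other genes or gene groups separate in this way was not counted here either. Cell types also differed in number between the groups, and their part in this sum was not tested.

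**Figure D5:**
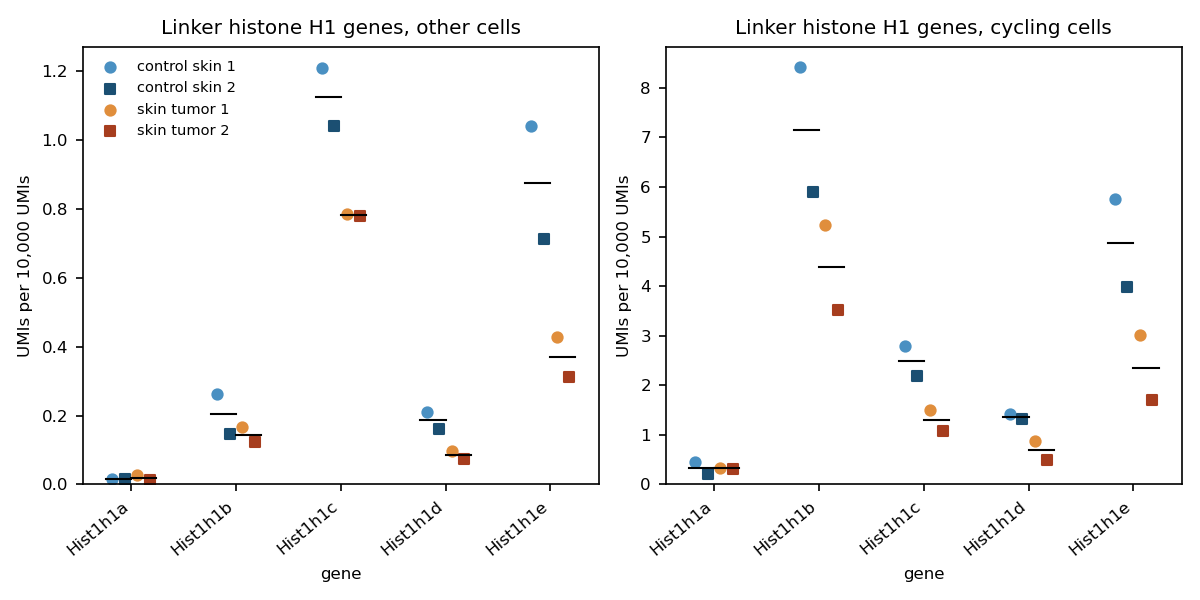
UMIs per 10000 of 5 linker histone genes in cycling cells and in other cells, 1 point per library with horizontal bars at the group means. Hist1h1c, Hist1h1d and Hist1h1e lie lower in both tumors than in both control skins in either kind of cell, and Hist1h1a overlaps between the groups.

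The other 2 genes lower outside the gate were Hist2h2ac, an H2A gene, at 0.164 and 0.161 against 0.103 and 0.0699 (-1.02 ± 0.23, adjusted p = 0.0319), and Hist1h3e, at 0.166 and 0.139 against 0.0985 and 0.0723 (-0.96 ± 0.21, adjusted p = 0.0322). Hist1h3e shares all its 3′ words with Hist1h3f. The higher gene was Hist1h4i, at 0.128 and 0.0874 against 0.217 and 0.216 (0.89 ± 0.21, adjusted p = 0.0374). The median was -0.07 over the histone genes and 0.04 over all genes. Without 1 library, 0 to 10 genes were lower. The count was 0 without control skin 1, 2 without control skin 2, 10 without skin tumor 1, and 5 lower with 5 higher without skin tumor 2. Leaving out cells with markers of 2 lineages gave 5 lower and 1 higher here, and 1 and 1 over all immune cells.

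Genes of the other lists also differed between the groups outside the gate. H1fx, a replication-independent linker histone, measured 0.0456 and 0.0628 in control skins and 0.00955 and 0.0121 in tumors (-2.46 ± 0.33, adjusted p = 0.0115). It was lower in cycling cells too, at 0.103 and 0.134 against 0.0149 and 0.0105 (-3.25 ± 0.40, adjusted p = 0.0104). Slbp fell by 0.73 ± 0.15 on the log2 scale outside the gate (adjusted p = 0.027), and in cycling cells its value was 0.19 ± 0.15. Of the lists, 3 of 10 tested variants, 3 of 21 processing factors and 4 of 21 chaperones were lower there, and 0, 2 and 1 were higher, beside 16.6% and 12.5% of all genes.

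The change with cycling was compared between tumors and control skins with an interaction term. None of 62 tested histone genes was called in either direction (0.0525% of 15231 genes each way), with 5 higher and 12 lower at an unadjusted p under 0.05, and DESeq2 called 1 higher and 1 lower. The unadjusted and DESeq2 counts stand without a share of all genes. Hist1h2bc had the lowest adjusted p, with -1.70 ± 0.29 (adjusted p = 0.0661). Its cycling level relative to other cells was above 1 in both control skins and, as given above, near or below 1 in the tumors.

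Single cell types were gated by marker genes, and 13 types had at least 10 cells in each library. In ILC2, type 2 innate lymphoid cells that express Gata3, 9 of 20 tested histone genes were lower in tumors (6.85% of 7470 genes were) and 0 higher (7.59%). Hist1h1c measured 1.94 and 1.87 against 0.467 and 0.316 (-2.41 ± 0.37, edgeR adjusted p = 0.000423). Hist1h1b (-2.40), Hist1h4d (-1.79) and Hist1h1e (-1.55) were also lower. Hist1h2an (143 UMIs in the control skins), Hist1h2ab (128) and Hist1h3c (117) had 0 UMIs in the tumors, which makes them at least 3.29-fold, 2.94-fold and 2.69-fold lower against a floor of 3 counts over the group. Hist1h2ae had 322 against 2 UMIs, a ratio of levels of 11.1 (counting interval 3.05 to 92.1), and Hist1h1d 171 against 2, a ratio of 5.90 (1.61 to 49.1). Tumor ILC2 held 276630 UMIs of all genes, against 4011856 in the control skins. The genes with 0 or 2 tumor UMIs passed the count filter through the control skins, where they were high. They could only be called lower, so their number is not support for a lower family.

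Cycling ILC2 numbered 12 of 266 and 13 of 188 cells in the control skins and 0 of 38 and 0 of 26 in the tumors. With the cycling cells left out, Hist1h1c alone remained lower of 12 tested genes (-1.89 ± 0.42, adjusted p = 0.0095, background 6.17%), and Hist1h1b stood at 0.03. Fewer genes passed the count filter in that fit, and the part of cycling cells in the calls was not tested. The level summed over all 67 genes in non-cycling ILC2 was 6.69 and 4.85 against 3.60 and 3.55.

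In CD4 T cells 8 of 32 tested genes were lower in tumors (4.74% of 7635 genes) and 0 higher (6.06%). Hist1h1c measured 2.51 and 2.95 against 1.01 and 0.853 (-1.59 ± 0.22, edgeR adjusted p = 0.0014). Hist1h1e measured 3.09 and 4.38 against 1.59 and 1.12 (-1.49 ± 0.25, adjusted p = 0.0041). Both tumors were below both control skins for each. The remaining 6 were Hist1h2bm (-2.96), Hist2h2bb (-2.66), Hist1h2ac (-2.27), Hist1h1b (-1.83), Hist1h2an (-1.61) and Hist1h2ab (-1.41). Cycling CD4 T cells numbered 7 of 68 and 8 of 33 in the control skins and 12 of 131 and 10 of 98 in the tumors. Without them 5 of 15 tested genes were lower (4.97% of all genes) and 1 higher (6.27%), Hist1h2bc (1.82 ± 0.49). The 8 lower genes of CD4 T cells became 5 with DESeq2, 4 without control skin 2, 16 without skin tumor 1 and 5 without skin tumor 2. The 9 of ILC2 became 5 with DESeq2, which gave an adjusted p for 7 genes, 2 of 5 tested without control skin 1, and 1 of 5 without control skin 2. Leaving out skin tumor 1 gave 6 of 33 in ILC2.

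In Tregs 2 of 18 tested genes were higher in tumors (2.51% of 7050 genes) and 0 lower (3.99%). Hist1h2bc measured 0.328 and 0.0937 against 1.24 and 0.668 (2.11 ± 0.50, edgeR adjusted p = 0.035), and Hist1h2ae changed by 1.84 ± 0.43 (adjusted p = 0.0331). Of the Tregs 7.89% and 2.78% were cycling in the control skins and 15.9% and 11.1% in the tumors. Tregs numbered 250 over the 4 libraries, so these levels and cycling shares rest on few cells. With cycling cells left out, Hist1h2ae was tested in 6 types and was higher in 0. The part of cycling cells in the change of Hist1h2ae in Tregs was not tested. In NK cells 1 of 25 tested genes was lower (2.76% of all genes) and 0 higher (2.13%), Hist1h1e, with -1.02 ± 0.21 (adjusted p = 0.0172). In mast cells 1 of 8 tested genes was lower (1.99% of all genes) and 0 higher (2.77%), Hist1h2an, with 27 UMIs in control skins and 1 in tumors, a ratio of levels of 37.0 with a counting interval of 6.09 to 1513. DESeq2 called 2 genes higher in Tregs and 0 in either direction in NK and mast cells. In Tregs the count of higher genes was 5 without control skin 1, 0 without control skin 2, 4 (with 2 lower) without skin tumor 1 and 9 without skin tumor 2. In NK cells the count of lower genes was 0 without control skin 1, 3 without control skin 2 and 9 (with 1 higher) without skin tumor 2. In mast cells it was 0 (with 1 higher) without control skin 1, 2 without control skin 2 and 5 without skin tumor 1, and without skin tumor 2 there was 1 lower and 2 higher. 

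No histone gene was called by edgeR or DESeq2 in the other 8 types, where 0 to 3 genes per type were higher and 0 to 5 lower at an unadjusted p under 0.05. These were CD8 T cells (37 tested, beside 4.0% of all genes higher and 5.38% lower), macrophages (49 tested, 0.319% and 0.235%), cDC1 (17 tested, 4.02% and 2.47%) and cDC2 (16 tested, 4.56% and 6.26%), which are 2 kinds of dendritic cell. The others were mature dendritic cells (13 tested) and neutrophils (4 tested), in which no gene at all was called, other MHC II cells (15 tested, 1.24% and 3.63%) and other T cells (26 tested, 3.38% and 4.48%). Of the CD8 T cells 14.2% and 10.4% were cycling in the control skins. The tumor shares were 40.8% in library 1 and 19% in library 2, and the summed level in all CD8 T cells was 28.2 and 29.8 against 55.9 and 19.1, so skin tumor 1 alone stood above the control skins.

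Hist1h1c was followed across the 13 types with cycling cells left out, a choice made after the data were seen. Its tumor value was below the control value in 10 of 13 types and the difference passed the test in 5, namely CD4 T cells (-1.86 ± 0.25), ILC2 (-1.89 ± 0.42), cDC1 (-2.05 ± 0.39), CD8 T cells (-1.06 ± 0.26) and other T cells (-1.06 ± 0.29). Of all genes 1.68% (cDC1) to 6.17% (ILC2) were lower in these types, with 3.70% in CD8 T cells, 4.97% in CD4 T cells and 5.11% in other T cells. With cycling cells kept, the difference passed in 2 of 13 types, CD4 T cells and ILC2. It was then -1.22 ± 0.31 in cDC1 (edgeR adjusted p = 0.0572). The cDC1 were few, 215 over the 4 libraries with cycling cells included. Most of them came from skin tumor 1, so the control values in cDC1 rest on very few cells. With cycling cells left out, Hist1h1c was positive in cDC2 (1.13 ± 0.34, edgeR adjusted p = 0.0678), macrophages (0.12 ± 0.18) and neutrophils (0.87 ± 0.48), none of which passed. Hist1h2bc was higher in 3 of 13 types and lower in none, the 3 being CD4 T cells (1.82 ± 0.49), Tregs (2.23 ± 0.52) and cDC2 (1.27 ± 0.26). Hist3h2a was higher in cDC2 (1.07). Of all genes 6.27%, 3.41% and 5.87% were higher in CD4 T cells, Tregs and cDC2.

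Hist1h2ap, the seventh most counted gene, came almost wholly from 1 library. It had 319 and 26 UMIs in the control skins, 10655 in skin tumor 1 and 11 in skin tumor 2. In cycling cells it measured 0.693 and 0.0441 per 10000 in the control skins and 8.35 and 0.0237 in the tumors, so the highest and lowest values were both tumors, and the difference between groups did not pass (3.43 ± 2.19, adjusted p = 0.323). It sits at chr13:21833026-21833507 (minus strand), inside a block from 21806612 to 21837530 that holds Hist1h2ao, Hist1h4m, Hist1h4n, Hist1h2bq and Hist1h2br, and all 50-base words of its last 300 bases also occur in Hist1h2ao. By UMI count, other members were highest in skin tumor 1 too. That library also held the most UMIs of immune cells, 64840375 against 29392427 to 40459530 in the others. The counts that follow are not levels, and a higher count there need not mean a higher level. In all immune cells Hist2h2aa1, which shares its 3′ end with Hist2h2aa2 on chromosome 3, had 80 and 56 UMIs in the control skins, 688 in skin tumor 1 and 7 in skin tumor 2. Hist1h4n had 138 and 68 against 363 and 38. Without Hist1h2ap, the summed level in cycling cells was 52.1, 35.6, 41.7 and 25.3.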

How the data were processed

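The authors deposited, for each of the 4 libraries, a matrix of UMI counts per gene and cell, which are whole counts without normalization, mapped to mm10 with Cell Ranger (7.1.0 per the labels, 7.0.1 per the file headers). Whether intronic reads were counted is not given in the sources used here. Cells with fewer than 100 genes, fewer than 1000 UMIs, more than 15% mitochondrial UMIs or a log10 gene to log10 UMI ratio under 0.8 were removed, as in the study's methods, and doublets were removed with simulated doublets in 30 principal components (1% expected per 1000 cells), in place of the study's caller. Cells with at least 20 UMIs of collagen and keratin markers were left out as non-immune. Cell types were gated by marker UMIs. Types with fewer than 10 cells in any library were not tested.

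UMI counts of each group of cells were added up by library, and edgeR 4.0.16 was run on the sums (R 4.3.3, TMM, filterByExpr, quasi-likelihood test, Benjamini-Hochberg, adjusted p under 0.05). Standard errors were derived from F, as log2 fold change divided by root F. DESeq2 1.42.0 gave an alternative. Shares of all genes are those of edgeR at an adjusted p under 0.05. None is given for DESeq2 or for counts at an unadjusted p. Python 3.11.15, scanpy 1.11.5 and scipy 1.17.1 were used for gates, levels and the two-sided exact permutation test. Counting intervals are exact, and they and floors cover counting error only. On simulated counts, 100 genes were changed by 1 and 100 by 2 on the log2 scale. The test of cycling against other cells (14065 genes) recovered 64% and 93% of them. That of tumor against control over all immune cells (16017 genes) recovered 6% and 66%.

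The members and lists were chosen with earlier results of these data known. Named genes were the 10 members with most UMIs, up to 10 members with the largest called change in each comparison, every member of a count of 5 or fewer, and from each list its most counted genes and its largest called change. A few members outside this rule were named after their values were seen, such as Hist1h4n and Hist2h2aa1. The comparison of cycling T cells with cycling MHC II cells, the fits without cells of 2 lineages and the type fits without cycling cells were added after the data were seen. Alternatives were other normalization and filters, other gates, a replicate block and leaving out each library. Stem-loops came from GENCODE vM21 transcripts and promoters from RefSeq.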

Additional observations from a re-analysis of the deposited data

Results flagged for a closer look

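In the test of whether the change with cycling differed between tumors and control skins (edgeR, interaction term), no histone gene was called, but 2 genes of the cell-cycle lists were. Rrm1, a subunit of ribonucleotide reductase, had a change with cycling larger in tumors by 2.39 ± 0.15 on the log2 scale (adjusted p = 0.00208). In other cells it measured 0.572 and 0.453 UMIs per 10000 in control skins and 0.116 and 0.0945 in tumors, and in cycling cells 0.881 and 0.844 against 1.21 and 0.848. Bub1b, a spindle checkpoint kinase, had a smaller change with cycling in tumors, by -1.57 ± 0.18 (adjusted p = 0.0264), with 0.0570 and 0.0653 in other cells of control skins and 0.237 and 0.165 in those of tumors.

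The summed histone level of S-ranked over G2/M-ranked cycling cells had a log2 ratio of 0.16 and 0.070 in the control skins and -0.47 and -0.62 in the tumors, opposite signs in the 2 groups. Each library was split at its own median, at -0.41 and -0.36 in the control skins and 0 and 0.37 in the tumors. S-ranked and G2/M-ranked cells are therefore not the same kinds of cells in the 2 groups. The difference in this ratio between groups was not tested. Hist1h2bc was the member with most difference between the ranked cells, at -0.77 ± 0.19 over the 4 libraries (edgeR adjusted p = 0.128).

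The cells left out for collagen and keratin transcripts also held histone UMIs. Their summed level was 11.7 per 10000 in skin tumor 1 (27 cells) and 14.4 in skin tumor 2 (76 cells), against 6.85 and 11.6 in control skins 1 and 2 (29 and 38 cells). Both tumors lay above both control skins, skin tumor 1 by a narrow margin over control skin 2. Of these cells 3.45% and 10.5% were cycling in control skins 1 and 2, and 7.41% and 9.21% in skin tumors 1 and 2. They also held immune transcripts, with H2-Ab1 at 9.50 and Cd207 at 4.61 per 10000 over the libraries.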

How the results depend on the processing

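Cycling against other cells gave 52 to 55 histone genes higher and 1 lower under every alternative run, and 52 to 53 higher with 1 lower when 1 library was left out. Within MHC II cells the counts without 1 library ran from 37 to 46 higher and 0 to 1 lower, within T cells from 37 to 50 and 0 to 1, and for cycling T against MHC II cells from 11 to 17 and 0 to 1. Tumor against control rested on few calls. Without 1 library, all immune cells gave 0 to 13 higher and 0 to 7 lower, cycling cells 0 to 8 and 0 to 6, other cells 0 to 5 and 0 to 10, the interaction 0 to 7 and 0 to 2, S-ranked against G2/M-ranked cells 0 to 0 and 0 to 1, and the types summed 0 to 60 and 10 to 48. With DESeq2, all immune cells gave 3 higher and 3 lower, cycling cells 0 higher and 7 lower, other cells 2 higher and the interaction 1 and 1. S against G2/M gave 0 higher and 1 lower, and the types 10 lower beside 2 higher in Tregs. Without the count filter, these were 3 higher and 3 lower in all immune cells, 4 and 8 in cycling cells, 2 and 7 for the interaction, 1 lower for S against G2/M and 30 and 45 for the types. Without TMM, which moved the median of all genes in all immune cells from 0.05 to 0.19, they were 3 higher in all immune cells, 1 higher and 1 lower in cycling cells, 2 higher in other cells and 4 higher in the types. Without cell filters, all immune cells gave 2 higher, cycling cells 1 higher and 0 lower, other cells 2 higher and the interaction 4 higher. Without doublet removal, cycling cells gave 1 higher and other cells 2. A gate at 3 UMIs gave 1 higher in cycling cells and 2 in other cells, a gate at 10 UMIs 1 higher in cycling cells and 1 lower for the interaction, and a gate at 3 per 10000 gave 5 lower in cycling cells and 2 higher in other cells. Without cells of 2 lineages, cycling cells gave 6 lower. Without cycling cells, the types gave 4 higher and 9 lower, and Hist1h1b in ILC2 turned to 0.027. Where only 1 direction is named, here and in the next paragraph, the count of the other is not given and is not to be read as 0. The cause of these moves was not tested.

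The replicate numbers share only a number. The correlation of replicate 1 minus 2 between groups was 0.01 in all, 0.07 in cycling and -0.01 in other cells. With a replicate block, all immune cells gave 0 higher and 2 lower, cycling cells 6 lower, other cells 0 higher and 3 lower, and the types 9 higher. Among single named members, 548 values kept direction and side of the threshold under the other alternatives, 30 lost the call and 1 reversed. With 1 library left out, 210 values kept both and 63 lost the call, and in tumor against control the lone library of a group was then assumed to vary like those of the other group. In the simulated counts most tumor against control changes of 1 on the log2 scale were missed. Far more genes were called in the data than were changed there, so that share need not hold for the data.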
